A study of Mus musculus with 7 samples.

Results

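The interferon-inducible genes described here are 45 mouse genes, among them the immunity-related GTPases, the guanylate-binding proteins, the antiviral effectors of the Ifit, Mx and Oas families and the antigen-processing genes. The tissue was extensor digitorum longus, a hindlimb muscle made largely of fast fibres, with 1 array per mouse. The genes were chosen by symbol, and each was read through the probe set that the platform annotation assigns to that symbol. For a gene with several such probe sets, the brightest on average over the 7 arrays was used. Of the 45 genes, 38 had a value, among 19938 genes with a probe set of their own. Irgm2, Igtp, Tgtp1, Gbp2, Gbp6 and Isg15 lie on probe sets that list several genes, and Ifi44 matched no probe set by symbol, so these 7 were not analysed here. The genes were picked with the knockout against wild type comparison of these arrays known. Their differences are therefore a description, given with standard errors and no test.

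The groups were 4 wild type animals and 3 with the label AMPKα1α2 double knockout, and every mouse had a background mixed from C57/Bl6 and SV129. AMPK is an energy-sensing protein kinase, and α1 and α2 are its catalytic subunits. The labels used here leave unsaid the promoter behind the deletion, the deleted exons, the age and sex of the mice and whether they had exercised. The genotypes were compared to see how transcript levels in muscle change without AMPKα.

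Array medians lay between 7.50 and 7.58 on the log2 scale. Genes of fast muscle fibres averaged 13.76 to 13.82 over 10 genes in the wild type arrays and 13.79 to 13.80 in the knockout arrays, so the defining genes of the labelled tissue were bright on every array. Prkaa1, the α1 gene, read 9.54, 9.48, 9.61 and 9.53 in wild type replicates 1 to 4 and 9.09, 9.19 and 8.81 in knockout replicates 1 to 3, so the groups did not overlap. Prkaa2, the α2 gene, read 12.31, 12.03, 12.28 and 12.28 against 12.04, 11.95 and 12.04, with wild type replicate 2 inside the knockout range. A probe outside a deleted part does not fall with it, so these values do not settle the genotypes, which were taken from the labels. No detection calls came with the values, and 20 of the 38 genes had the same value on at least 2 arrays, against 59.4% of all genes.

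Interferon-gamma is made mainly by T cells and NK cells. It acts through the receptor chains Ifngr1 and Ifngr2 and the kinases Jak1 and Jak2, and the signal reaches gamma-activated sites in the genome. Its typical targets are the transcription factor Irf1, the GTPases that attack the vacuoles of intracellular microbes, and the proteasome subunits and peptide transporters that feed MHC class I. Type I interferons act through Ifnar1 and Ifnar2, and a complex that holds Stat2 and Irf9 binds interferon-stimulated response elements, which drives the Ifit, Mx and Oas genes. The responses overlap, so the division used below names the inducer each gene is best known for: 12 measured genes of interferon-gamma type, 23 of type I, and the 3 Ifitm genes, which answer to either.

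Promoters of these genes are known for these DNA elements, and 34 of the 45 genes had an entry in the RefSeq promoter table of assembly GRCm38.p6. Each window of 300 bases runs from 250 before to 50 after a transcription start. The core GAAANNGAA of the response element, sought on both strands, was present for 21 of 34 genes (61.8%), against 9.76% of the 27025 genes in the table. These counts are over the genes with an entry, measured or not: the core was found in 8 of 12 of interferon-gamma type (66.7%) and 11 of 19 of type I (57.9%). The core TTCNNNGAA of the gamma-activated site, which reads as its own reverse complement, was present for 13 of 34 genes (38.2%) and 9.55% of all genes. By class it was present for 7 of 12 (58.3%) and 5 of 19 (26.3%). All 4 immunity-related GTPases and all 4 guanylate-binding proteins with an entry held the response element core. Irf1, Psmb8, Psmb9 and Tap1 did not hold it, while Irf1 and Psmb8 held the gamma core.

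Upstream stretches are shown for 4 of these genes. They were picked after the values were seen, for Ifit3, the measured type I gene with the widest spread between wild type arrays, Gbp5, a GTPase with both kinds of core, Irf1, and Ifitm2, whose groups did not overlap. Each runs 5′ to 3′ on the gene's strand, capitals mark matches to either core, and a match of letters is not evidence of binding. The Ifit3 stretch lies at chr19:34583344-34583465 on the plus strand and holds 3 response element cores. The Gbp5 stretch lies at chr3:142496684-142496920 on the plus strand and holds 1 response element core and 2 gamma cores. The Irf1 stretch lies at chr11:53769894-53769962 on the plus strand and holds 1 gamma core. The Ifitm2 stretch lies at chr7:140955969-140956037 on the minus strand and holds 1 response element core. All coordinates are those of GRCm38.p6.
Ifit3: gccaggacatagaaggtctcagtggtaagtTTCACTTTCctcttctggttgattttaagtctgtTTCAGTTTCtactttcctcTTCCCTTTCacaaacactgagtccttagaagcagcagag
Gbp5: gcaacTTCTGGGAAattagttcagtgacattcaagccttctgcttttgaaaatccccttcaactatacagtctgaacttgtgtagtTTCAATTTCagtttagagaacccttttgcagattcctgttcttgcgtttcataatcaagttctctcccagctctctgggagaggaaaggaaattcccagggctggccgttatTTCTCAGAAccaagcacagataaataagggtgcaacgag
Irf1: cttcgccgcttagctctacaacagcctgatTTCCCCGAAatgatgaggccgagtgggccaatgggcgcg
Ifitm2: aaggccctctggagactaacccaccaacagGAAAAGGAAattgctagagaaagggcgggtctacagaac

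Gm4841, an immunity-related GTPase gene, was higher in every knockout array, while most of its relatives differed by less than the spread between mice. Of the 38 genes, Gm4841 alone differed by at least 1 log2 unit, as did 0.191% of all genes. The groups did not overlap for 2 of the 38, Gm4841 and Ifitm2, both higher in the knockout, against 8.61% of all genes, of which 3.29% were higher and 5.33% lower. In the limma fit across all genes, 0 of the 38 had a Benjamini-Hochberg adjusted p under 0.05, against 0.0251% of all genes. Under 0.10 there was 1, Gm4841, against 0.361% of all genes. At an unadjusted p under 0.05 there were 3, Gm4841, Ifi35 and Ifitm2, all higher, against 10.6% of all genes, 3.93% higher and 6.69% lower. The rule that chose these genes used this contrast, so nothing is read from these counts. In whole muscle, more cells of a type and more RNA per cell cannot be told apart.

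**Figure D1:**
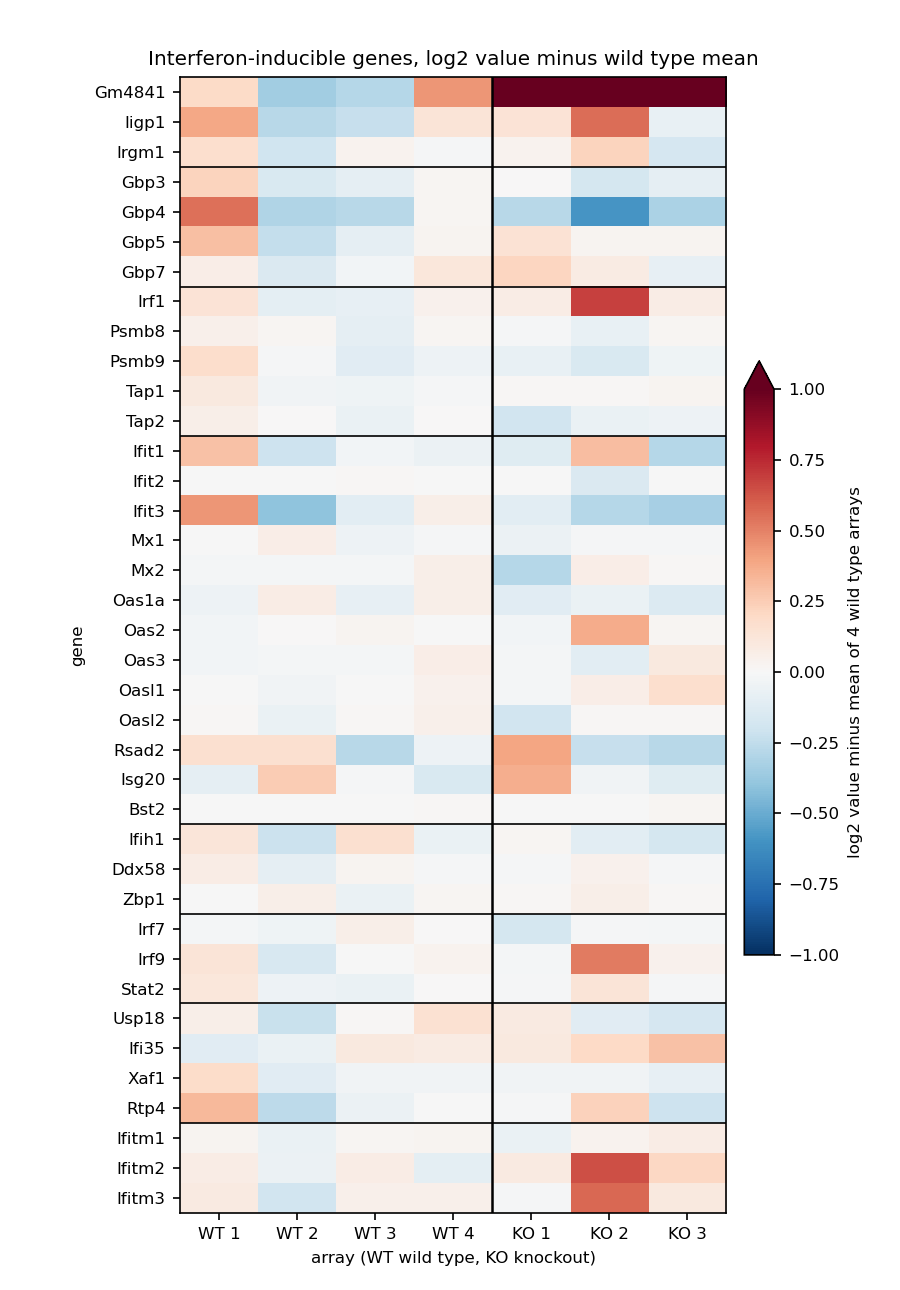
Heat map of the 38 measured genes (rows, in blocks by function) on the 7 arrays (columns), coloured by log2 value minus the mean of the 4 wild type arrays. Gm4841 lies past the colour scale in all knockout arrays, wild type replicate 1 is the highest wild type array for 10 of the 12 genes from Gm4841 to Tap2, and knockout replicate 2 is red for Irf1, Irf9, Ifitm2 and Ifitm3.

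The immunity-related GTPases are enzymes that load onto the vacuoles of bacteria and parasites and break them. Gm4841 (probe set 10459066) read 8.28, 7.73, 7.80 and 8.53 in wild type replicates 1 to 4 and 9.58, 9.47 and 9.26 in knockout replicates 1 to 3. The lowest knockout array lay above the highest wild type array, and wild type replicates 1 and 4 were above replicates 2 and 3. The means were 8.08 ± 0.38 (SD, n = 4) and 9.44 ± 0.16 (SD, n = 3). Knockout minus wild type was thus 1.35 ± 0.20 (SE) on the log2 scale, which is 2.56-fold. The difference ran from 1.237 to 1.502 when any 1 array was left out. Iigp1, a well-studied effector of the same family, lies on chromosome 18 as Gm4841 does, separated from it by 1 protein-coding gene in the RefSeq table. Iigp1 read 7.83, 7.16, 7.21 and 7.57 in the wild type and 7.580, 7.997 and 7.368 in the knockout mice, so the groups overlapped. Its difference of 0.21 ± 0.21 was no larger than its standard error and was 0.03 without knockout replicate 2. Irgm1, a regulator of the family that acts on host membranes, differed by 0.03 ± 0.11.

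Genes beside Gm4841 on chromosome 18, named after their values were seen, had differences of several sizes. The nearest on one side, Gm4951, differed by -0.04 ± 0.05. Further out on that side, Isoc1 differed by -0.26 ± 0.08, with the knockout arrays below the wild type arrays. On the other side, F830016B08Rik, between Gm4841 and Iigp1, had no value here. Past Iigp1, Smim3 differed by 0.55 ± 0.20 without overlap of the groups, with 8.47 in knockout replicate 2 above the other arrays. Dctn4, the next gene, differed by -0.04 ± 0.04. For the other measured neighbours looked at, Iigp1 among them, the groups overlapped. Prkaa1 lies on chromosome 15 and Prkaa2 on chromosome 4. The background of every mouse was mixed, and its part in the difference of Gm4841 was not tested. Probes of related GTPase genes can share sequence, and the part of that in these values was not tested.

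Guanylate-binding proteins are large GTPases that coat microbes and vacuoles in the cytosol. Gbp4 read 8.86, 8.01, 8.04 and 8.33 in wild type arrays and 8.04, 7.72 and 7.99 in knockout arrays. Wild type replicate 1 stood above the other 6 arrays, and the groups overlapped through wild type replicates 2 and 3. The difference of -0.39 ± 0.21 shrank to -0.21 without wild type replicate 1. Gbp3 read 7.57, 7.19, 7.25 and 7.36 against 7.35, 7.17 and 7.25, a difference of -0.09 ± 0.09 that became -0.01 without wild type replicate 1. Gbp5, which also takes part in inflammasome assembly, differed by 0.07 ± 0.12 and Gbp7 by 0.07 ± 0.09. The 4 family members among the 38 measured genes thus had differences of either sign, and each was under 2 standard errors.

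Irf1, the transcription factor that relays much of the interferon-gamma response, read 7.91, 7.68, 7.70 and 7.82 in wild type arrays and 7.85, 8.46 and 7.85 in knockout arrays. Knockout replicate 2 was above the other 6 arrays, which overlapped. The difference of 0.28 ± 0.15 was 0.08 without that array. A second Irf1 probe set differed by 0.01 ± 0.035. Tap2, a subunit of the peptide transporter of the endoplasmic reticulum, read 8.30, 8.24, 8.18 and 8.24 against 8.05, 8.17 and 8.19. Those groups overlapped at wild type replicate 3, and the difference was -0.10 ± 0.05. Its partner Tap1 differed by 0.02 ± 0.04, and the immunoproteasome subunits Psmb8 and Psmb9 by -0.02 ± 0.04 and -0.09 ± 0.07. The constitutive counterparts of the catalytic subunits differed by -0.01 ± 0.04 for Psmb5, 0.02 ± 0.04 for Psmb6 and -0.09 ± 0.04 for Psmb7.

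**Figure D2:**
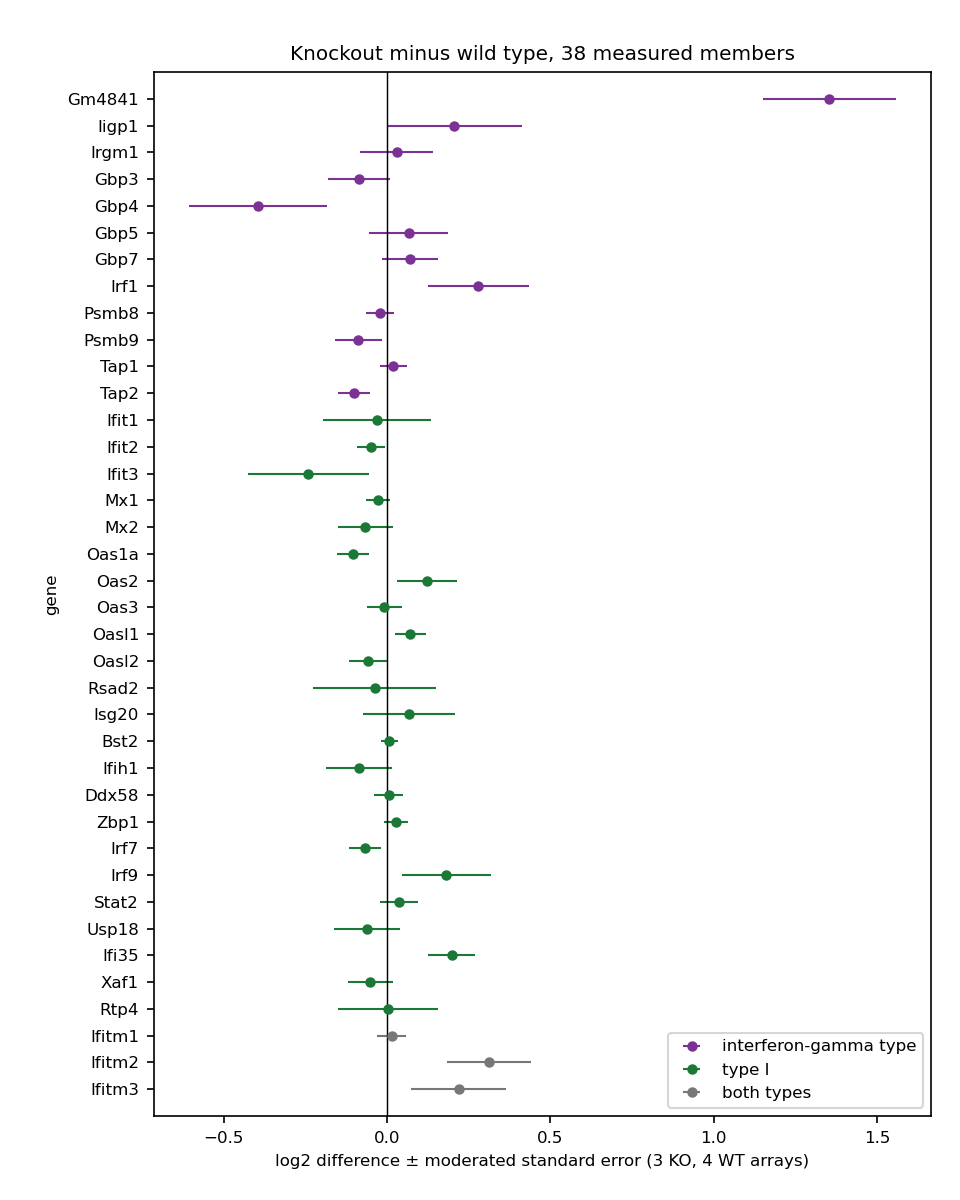
Knockout minus wild type log2 difference of each measured gene (points) with its moderated standard error (bars), coloured by the inducer the gene is best known for. Gm4841 lies at 1.35, and the other 37 genes lie between -0.39 and 0.31.

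The 13 antiviral effectors, which sense, cut or trap viral RNA and particles, differed by -0.24 to 0.12, and 4 of the 13 were above 0. Ifit3, which holds the Ifit complex together on viral RNA, read 8.23, 7.39, 7.68 and 7.84 in wild type arrays and 7.68, 7.50 and 7.45 in knockout arrays. Wild type replicate 1 was the highest and wild type replicate 2 the lowest of all 7, so the knockout values lay inside the wild type range. The difference was -0.24 ± 0.19, and -0.09 without wild type replicate 1. Oas2, an enzyme that makes the messenger that switches on RNase L, read 7.71, 7.73, 7.76 and 7.73 against 7.71, 8.10 and 7.75. Knockout replicate 2 was high and the other arrays overlapped, and the difference of 0.12 ± 0.09 was about 0 without that array (-0.001). The remaining effectors were Ifit1 (-0.03 ± 0.17), Ifit2 (-0.05 ± 0.04), Mx1 (-0.03 ± 0.04), Mx2 (-0.07 ± 0.08), Oas1a (-0.11 ± 0.05), Oas3 (-0.01 ± 0.05), Oasl1 (0.07 ± 0.05), Oasl2 (-0.06 ± 0.06), Rsad2 (-0.04 ± 0.19), Isg20 (0.07 ± 0.14) and Bst2 (0.01 ± 0.03). Each of these 11 had overlapping groups. The dimmest of them, Mx1, Mx2 and Ifit2, lay at percentiles 6.9, 12.3 and 25.5 of all genes by level, so their small differences say little.

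Among the sensors of foreign nucleic acid, Ifih1 read 8.08, 7.74, 8.12 and 7.89 in the wild type arrays and 7.98, 7.85 and 7.78 in the knockout arrays, a difference of -0.09 ± 0.10 with overlapping groups. Zbp1, a sensor of left-handed nucleic acid, read 7.37, 7.43, 7.30 and 7.39 against 7.38, 7.43 and 7.38, a difference of 0.03 ± 0.04. Ddx58, the RIG-I gene, differed by 0.01 ± 0.05. The sensors therefore gave differences smaller than their standard errors.

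Irf9 and Stat2 belong to the complex that binds response elements, and Irf7 amplifies interferon production. Irf9 read 8.55, 8.26, 8.42 and 8.46 in the wild type arrays and 8.40, 8.94 and 8.47 in the knockout arrays. Knockout replicate 2 was again above the rest, and the difference of 0.18 ± 0.14 was 0.01 without it. Irf7 read 7.64, 7.61, 7.71 and 7.66 against 7.48, 7.64 and 7.64, a difference of -0.07 ± 0.05. Stat2 differed by 0.04 ± 0.06.

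Ifi35, an interferon-induced leucine zipper protein, read 8.51, 8.55, 8.72 and 8.70 in the wild type arrays and 8.72, 8.82 and 8.92 in the knockout arrays. The lowest knockout value equalled the highest wild type value, so the groups touched, and the difference was 0.20 ± 0.07. Usp18, the protease that removes Isg15 from its targets and damps type I signalling, read 7.98, 7.70, 7.93 and 8.08 against 8.02, 7.81 and 7.75, a difference of -0.06 ± 0.10. Xaf1, a promoter of cell death, differed by -0.05 ± 0.07 and Rtp4 by 0.00 ± 0.15. Apart from Ifi35, the genes of this block differed by less than their standard errors.

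The Ifitm proteins sit in membranes and hinder virus entry. Ifitm2 (probe set 10383756) read 10.64, 10.51, 10.64 and 10.47 in the wild type arrays and 10.65, 11.20 and 10.77 in the knockout arrays. The knockout arrays lay above the wild type arrays, but knockout replicate 1 did so by a margin smaller than the spread within either group. The difference of 0.31 ± 0.13 was 0.15 without knockout replicate 2. In its other 2 probe sets the differences were 0.30 ± 0.14 and 0.23 ± 0.13. In the latter the groups overlapped, with knockout replicate 1 at 9.35 against 9.40, 9.39 and 9.43 in wild type replicates 1 to 3. The groups also overlapped in the mean of all 3 probe sets. Ifitm3 read 11.06, 10.78, 11.03 and 11.03 against 10.96, 11.55 and 11.07, a difference of 0.22 ± 0.15 that was 0.04 without knockout replicate 2. Ifitm1 differed by 0.01 ± 0.05. Related Ifitm genes can share probe sequence, so values of Ifitm2 and Ifitm3 may not be independent.

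**Figure D3:**
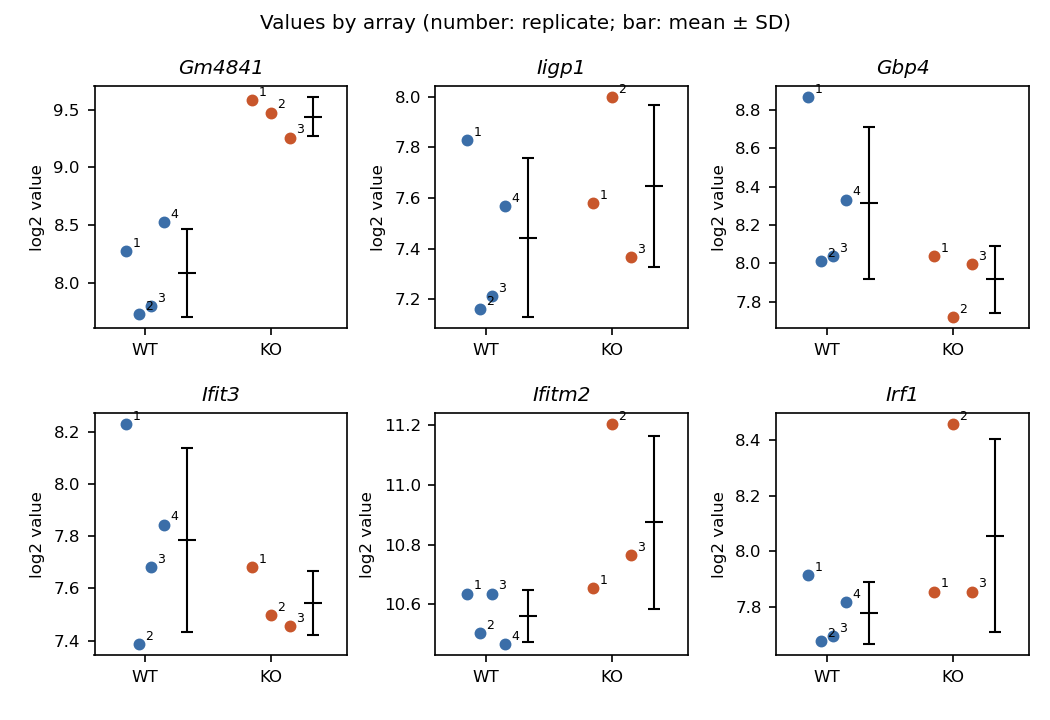
Log2 values of 6 genes on each array (points, numbered by replicate; blue wild type, orange knockout), with mean ± SD beside each group. Gm4841 separates the groups, Gbp4 and Ifit3 are highest in wild type replicate 1, and Ifitm2 and Irf1 are highest in knockout replicate 2. Each panel has its own axis, which does not start at 0.

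The typical difference lay near 0 in either class. The median was 0.02 over the 12 interferon-gamma type genes and -0.03 over the 23 type I genes, against -0.005 over all genes. Differences were above 0 for 7 of 12 and 10 of 23 genes, against 46.7% of all genes. The means were 0.11 and -0.01, and without Gm4841 the mean of the interferon-gamma type was -0.002. The higher mean of that class thus rests on Gm4841. Within the 3 measured immunity-related GTPases of the 45, the difference of Gm4841 was 1.35 while Iigp1 and Irgm1 were at 0.21 and 0.03. Members of that family outside the 45 were not counted here.

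The wild type mice also varied among themselves, a pattern described after the values were seen. Wild type replicate 1 was the highest wild type array for 19 of the 38 genes, against 18.6% of all genes. This held for 10 of 12 interferon-gamma type genes, with Gm4841 and Gbp7 highest in wild type replicate 4, and for 8 of 23 type I genes. Wild type replicate 2 was the lowest for 22 of the 38, against 22.2% of all genes, and for all 7 measured GTPases. The range over the 4 wild type arrays exceeded the 90th percentile of all genes for 13 of the 38, against 10.0% by construction. This included 6 of the 7 GTPases among the 38. Among these 13 were Gbp4 at 0.85, Ifit3 at 0.84, Gm4841 at 0.79, Iigp1 at 0.67 and Rtp4 at 0.58 log2 units, against a median of 0.14 over all genes. Outside the 38, the wild type range lay at percentile 97.1 of all genes for Gbp9 and 96.6 for Gm12250. It lay at percentile 63.5 for Gbp2b, 36.0 for Gbp8 and 38.6 for Gbp11. All the genes share arrays, so the counts describe 4 mice and not independent observations.

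Taking each gene's deviation from its own mean over 7 arrays, the median over the 11 interferon-gamma type genes other than Gm4841 was 0.16, -0.13, -0.08 and 0.03 in wild type replicates 1 to 4. It was 0.01, -0.003 and -0.04 in knockout replicates 1 to 3, inside the wild type range. Type I genes gave 0.02, -0.05, -0.01 and -0.001 in the wild type arrays and -0.015, 0.02 and -0.02 in the knockout arrays, a narrower span in the same order at its ends. Macrophage markers averaged 8.23, 8.03, 8.24 and 8.13 in wild type replicates 1 to 4. These averages were lowest in replicate 2, as the GTPases among the 38 were, but alike in replicates 1 and 3. Their part in the wild type pattern was not tested.

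**Figure D4:**
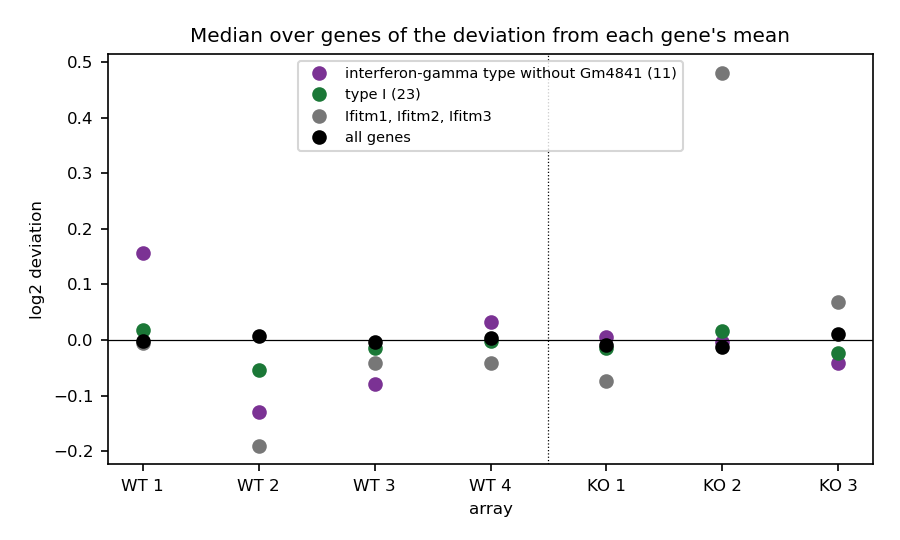
Median deviation from each gene's mean over 7 arrays (log2 units, points) for each class and for all genes, by array, with a dotted line between the genotypes. The interferon-gamma type genes without Gm4841 lie at 0.16 in wild type replicate 1 and -0.13 in wild type replicate 2, and the Ifitm genes at 0.48 in knockout replicate 2.

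Knockout replicate 2 was the highest of all 7 arrays for 10 of the 38 genes, against 10.0% of all genes, among them Irf1, Irf9, Oas2, Ifitm2, Ifitm3 and Iigp1. Outside the 45, 3 genes were picked because they were high in that array, and they stand for no group. Socs3, an inhibitor of cytokine signalling that Stat3 induces, read 12.37 there and 8.27 to 8.73 in the other arrays. Myd88, the adaptor of Toll-like receptors, read 10.07 there and 8.28 to 8.62 elsewhere. The interferon-inducible Ifi205 read 12.60 there and 9.77 to 10.73 elsewhere. The differences of Irf1, Irf9, Oas2, Ifitm2 and Ifitm3 without that array are given beside each gene above.

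The other genes of the pathway were read in the same fit, through lists holding 112 measured genes. These lists, and the marker lists below, were chosen with earlier results of these data known. Their counts and p-values are therefore a description. In limma with Benjamini-Hochberg adjustment over the 21789 probe sets with 1 gene symbol, 0 of the 112 passed in either direction. An unadjusted p under 0.05 was found for 18 of the 112, against 10.6% of all genes. The interferon genes themselves differed by -0.14 to 0.12 over 15 measured of 20, with 0 at an unadjusted p under 0.05. Ifng, named after its values were seen, read 6.95 to 7.02 in wild type and 6.94 to 7.06 in knockout arrays. Its level lay at percentile 30.1 of all genes. The members of that list with the smallest p were Ifnz at -0.14 ± 0.07, Ifnk at 0.12 ± 0.09 and Ifnl2 at 0.09 ± 0.09.

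Of the 6 receptor chains, Ifnar2, the ligand-binding chain of the type I receptor, read 8.73, 8.39, 8.80 and 8.76 in the wild type arrays and 8.86, 8.99 and 9.21 in the knockout arrays. The groups did not overlap, and the difference of 0.35 ± 0.12 did not pass (limma adjusted p = 0.401). Ifngr1 differed by 0.13 ± 0.07 and Ifngr2 by -0.13 ± 0.08, and 0 of 6 passed. Among the 13 measured signalling genes and inhibitors, Ptpn11, a protein tyrosine phosphatase, differed by -0.21 ± 0.06 and Irf2, an antagonist of Irf1, by -0.17 ± 0.05. Socs1, the main brake on interferon receptors, differed by 0.22 ± 0.09. Of the 13 genes 0 passed (limma adjusted p = 0.296, 0.352 and 0.447 in the order named). Without knockout replicate 2 the differences were -0.23 for Ptpn11, -0.22 for Irf2 and 0.11 for Socs1. A list of sensors and factors around the induction of interferon had 12 measured genes. In it, Irf5 differed by -0.42 ± 0.08, Tlr7, an endosomal RNA receptor, by 0.39 ± 0.10 and Aim2, a DNA sensor, by 0.10 ± 0.04. None of the 12 passed, the limma adjusted p being 0.145, 0.262 and 0.445.

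Of the 8 measured MHC class II genes, 5 had knockout arrays above the wild type arrays, against 3.29% of all genes. In the limma fit 0 of the 8 passed, and this list too was chosen with earlier results of these data known. Class II molecules present peptides on macrophages, dendritic cells and B cells, and interferon-gamma induces them through Ciita. Cd74, the invariant chain, read 9.06, 9.07, 9.11 and 8.86 in the wild type arrays and 9.67, 9.98 and 10.12 in the knockout arrays, a difference of 0.90 ± 0.11. H2-Aa differed by 1.03 ± 0.14 and H2-Ab1 by 0.86 ± 0.11, and for all 3 the knockout arrays lay above the wild type arrays. Their limma adjusted p was 0.0853, 0.0918 and 0.0905, none of which passed. The groups overlapped for Ciita, H2-Oa and H2-Ob, and H2-Oa was at -0.03 ± 0.04 and H2-Ob at 0.02 ± 0.035 (both named after their values were seen). Without knockout replicate 1, Cd74 and H2-Aa passed. Ciita itself, also named after its values were seen, differed by 0.10 ± 0.05. The 12 measured class I genes differed by -0.19 to 0.14, with 0 of 12 passing. Those with the smallest p were Tapbpl at -0.12 ± 0.05, Calr at 0.14 ± 0.06 and Erap1 at -0.11 ± 0.07. Without knockout replicate 2 they were at -0.11, 0.08 and -0.13. Whether class II and class I genes differ from each other was not tested.

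Markers of macrophages, which carry class II molecules, were read on the same arrays. Their list was chosen with earlier results of these data known, so its counts and p-values are a description. Of 16 measured macrophage and monocyte markers, 14 had knockout arrays above the wild type arrays, against 3.29% of all genes. Lyz2 and Tyrobp rose, by 0.94 ± 0.05 and 0.63 ± 0.05 (limma adjusted p = 0.0088 and 0.0167), and 2 of 16 passed. Neither passed without wild type replicate 1, 3 or 4 (limma adjusted p = 0.0951, 0.0658 and 0.0986 for Lyz2 and 0.133, 0.0658 and 0.0986 for Tyrobp), and Tyrobp did not pass without wild type replicate 2, knockout replicate 2 or knockout replicate 3 (0.0936, 0.092 and 0.082). With the replicate number as a block, neither passed (0.237 and 0.258). Their mean level lay between 8.03 and 8.24 for wild type arrays, below the 8.63 to 8.77 of knockout arrays. The part of these cells in the values of Gm4841 and of the class II genes was not tested. The level ranges of lymphocyte markers overlapped between the genotypes. The mean over 10 T cell markers lay between 6.75 and 6.86 for wild type arrays and 6.80 to 6.88 for knockout arrays. That over 9 NK cell markers lay between 6.07 and 6.18 for wild type arrays and between 6.10 and 6.18 for knockout arrays. Single T cell markers averaged 5.84 to 7.52 and NK cell markers 5.50 to 7.28, against a median of 7.72 over all genes. The overlap therefore does not show that numbers of these cells were unchanged.

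Markers of B cells (6 measured) and plasmacytoid dendritic cells (6 measured) differed by -0.03 to 0.06 and -0.11 to 0.18, with 0 passing in the same limma fit. Leading genes of these lymphoid and dendritic lists were Il7r at 0.07 ± 0.04, Cd3g at -0.04 ± 0.04, Prf1 at 0.07 ± 0.06, Nkg7 at 0.10 ± 0.10, Ms4a1 at 0.06 ± 0.05, Cd22 at 0.04 ± 0.05, Irf8 at 0.18 ± 0.09 and Tcf4 at -0.10 ± 0.06. Without knockout replicate 2, Irf8 and Tcf4, of the plasmacytoid dendritic cell list, were at 0.07 and -0.03. Endothelial markers had a median difference of -0.35 over 10 genes, with Cdh5 at -0.32 ± 0.06 and Emcn at -0.59 ± 0.11. Fibroblast markers had a median of 0.41 over 7 genes, with Dpt at 0.42 ± 0.08 and Pdgfra at 0.53 ± 0.11, and ranged from -0.284 (Col1a1) to 0.715 (Lum), these 2 named as the ends of the range. Fast fibre genes had a median of 0.01 over 10, with Mylpf at 0.14 ± 0.06 and Tnnc2 at -0.075 ± 0.035. In each of these lists 0 genes passed. An unadjusted limma p under 0.05 was found for 7 endothelial, 3 fibroblast and 0 fibre genes, against 10.6% of all genes.

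Other interferon-induced genes, which were not among the 45, gave 43 measured of 49. Their median difference was -0.01, with 0 passing. At an unadjusted limma p under 0.05 there were 5, 3 higher and 2 lower, against 10.6% of all genes. Dtx3l, a ubiquitin ligase paired with Parp9, read 8.69, 8.76, 8.70 and 8.77 in the wild type arrays and 8.93, 9.08 and 8.99 in the knockout arrays, a difference of 0.270 ± 0.045 (limma adjusted p = 0.113). Cxcl10, a chemokine for T cells, differed by 0.43 ± 0.12 and Ifi27 by 0.13 ± 0.05 (limma adjusted p = 0.272 and 0.407). Without knockout replicate 2 the differences were 0.23 for Dtx3l, 0.30 for Cxcl10 and 0.13 for Ifi27. For these 3 genes the groups did not overlap. Gbp9, a neighbour of Gbp4 named after its values were seen, read 8.52, 8.02, 8.25 and 8.31 in the wild type arrays. In the knockout arrays it read 8.04, 7.97 and 7.98, and wild type replicate 1 was highest, as for Gbp4. Gbp9 differed by -0.28 ± 0.11 and Gbp8 by -0.10 ± 0.04, and they are the 2 lower genes counted above (limma adjusted p = 0.437 and 0.466). Gbp2b differed by 0.01 ± 0.05 and Gbp11 by -0.02 ± 0.06. These last 3 were also named after their values were seen.

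**Figure D5:**
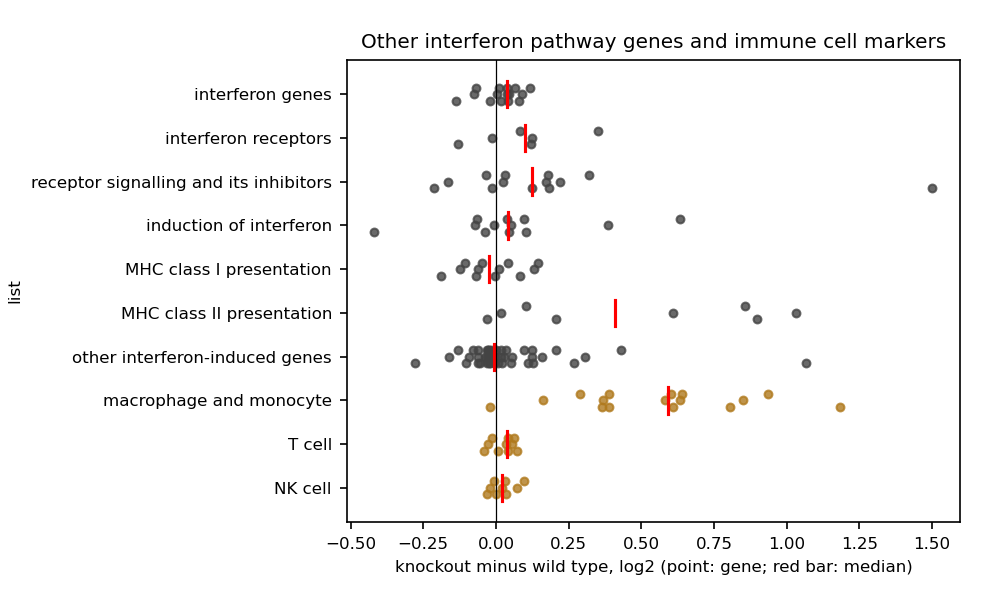
Knockout minus wild type log2 difference of each measured gene (points) in 7 lists of other interferon pathway genes (grey) and 3 lists of immune cell markers (brown), with list medians in red. The class II genes have a median of 0.41 and a range of -0.03 to 1.03, the macrophage markers a median of 0.59 and a range of -0.02 to 1.18, and the T cell and NK cell markers lie between -0.04 and 0.095.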

How the data were processed

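Total RNA (100 ng per sample, extracted with TRIzol) was labelled, per the labels' protocols, with Ambion's WT Expression Kit. The submitters deposited log2 values of 28856 probe sets on 7 arrays; base 2 is inferred from their range, and for the software, scaling between arrays and genome build the sources used here give nothing. Probe sets were named through GEO's platform annotation: 21789 had 1 gene symbol and were tested, 1621 had several and 5446 none. Of the tested, 21698 matched RefSeq GRCm38.p6 by gene identifier. Knockout minus wild type differences and moderated standard errors (written after ±, unless marked SD) came from limma 3.58.1 in R 4.3.3, without covariates or filters, with Benjamini-Hochberg adjustment over tested probe sets at 0.05. Genes were counted through the probe set of highest mean. The code was checked on simulated data. Members, classes, lists and the naming rule were chosen with earlier results of these data known. The rule gave values in every array to members without overlap and to the 2 of each block with the largest difference, and named up to 3 genes per pathway list and 2 per marker list by smallest p. A planned look at protein features was not made, as no protein sequences were used here.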

Additional observations from a re-analysis of the deposited data

Results flagged for a closer look

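Within the 4 wild type arrays, a few genes had an array far from the other 3, by Dixon's test at the 95% level. Chance flags about 1 in 20 groups under normal noise, but in these values 20.5% of all genes were so marked. Over all genes, 59.4% held identical values on at least 2 arrays. Of the 38 interferon-inducible genes, 5 were marked (13.2%). Ifit2 read 6.81 in wild type replicate 3 against 6.80 in the other 3, Mx2 6.17 in replicate 4 against 6.09, and Oas3 7.17 (7.165) in replicate 4 against 7.07 to 7.08. Ifitm1 and Ifitm3 were low in wild type replicate 2, at 7.89 against 7.98 and at 10.78 against 11.03 to 11.06.

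Of the 40 other named genes, 9 were marked. Ifnar2 was low in wild type replicate 2 (8.39), Psmb5 high in replicate 2 (11.93), and Psmb7 and Cd22 high in replicate 1 (11.08 and 6.87). Tapbpl was high in replicate 4 (7.72). In replicate 3, Erap1 was high (8.30), while Prf1, Ms4a1 and Irf8 were low (7.11, 5.68 and 7.95).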

How the results depend on the processing

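The count of called members was also 0 under 15 refits. These changed the scaling, the tested probe sets, the weights, the prior, the probe set per gene, the replicate block and the arrays left out. Over all genes, 5 passed in the main fit and 0 to 14 in the refits. With so few genes passing, a count of 0 among 38 would be usual in any fit and says little about the members. In the main fit the count of members became 1 at a limma adjusted p under 0.10 and 3 at an unadjusted p under 0.05. Members without overlap numbered 2, and 4 after quantile normalization, 1 in the mean of probe sets per gene, and 2 to 7 when 1 array was left out (7 without knockout replicate 1, 6 without wild type replicate 3, 4 without wild type replicate 1). Fewer arrays separate more readily, and the share of all genes was taken only in the main setting. Nothing is therefore read from the counts in the other settings, with or without an array left out. The called pathway genes numbered 0, and 0 to 2 when 1 array was left out. The type I median of -0.028 was 0.005 without dim probe sets and -0.032 to 0.011 with 1 array left out. The interferon-gamma type median ran from -0.015 to 0.068 and the gap between classes from 0.002 to 0.056 with 1 array left out, and all their alternatives moved by less than the replicate spread. The counts of genes highest in wild type replicate 1 were 10 and 8 under each scaling tried, which was chosen after seeing the data. Same-numbered arrays correlated at 0.30, 0.15 and -0.20 in their deviations, and differently numbered arrays at -0.27 to 0.20. The same-numbered wild type array correlated highest for knockout replicates 1 and 2 and lowest for replicate 3. This mixed result does not settle pairing, and the main fit took the numbers as no pairs. With the replicate block the medians were 0.020 and -0.012, and 0 members and 0 of all genes passed. The block, weights, prior and tested set leave overlap untouched. Depth has no counterpart here, and 7 arrays limit every value.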
